A study of Mus musculus with 8 samples.

Results

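T cells that remained CD69- after culture with donor dendritic cells were compared between mice tolerant of a skin graft on day 100 and naive mice. The comparison uses 2 of the 8 arrays of the study, chosen by their labels, with 1 array a side and therefore no test and no error. A gene was counted as higher or lower when its signal was at least 1.5-fold apart on the 2 arrays and its detection p was under 0.01 on the brighter one. All recipients were C57BL/6 male mice, and the T cells came from spleen and lymph nodes. The tolerant mice carried tail skin from BDF1 donors, a C57BL/6 by DBA/2 cross, accepted after a donor specific transfusion with MR-1, an antibody against CD40L. The naive mice had no graft. The other states were early tolerant mice on day 21, which had the same treatment, and untreated mice rejecting their grafts on day 7. Before sorting on CD69, T cells of every group spent 20 to 21 hours with bone-marrow dendritic cells of the donor, so no array shows cells that did not meet donor cells. The labels do not say how many mice stand behind an array or whether mice were pooled.

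CD69 is a surface lectin that T cells put up early after their antigen receptor is engaged and also under type I interferon. CD69- cells of such a culture are those that did not carry it when sorted, but they shared the medium, and its cytokines, with the cells that did. Interferons bind receptors that signal through JAK kinases and STAT factors, and STAT and IRF proteins then bind promoters of a large set of genes. Type I interferon acts mainly through the interferon-stimulated response element, ISRE, and interferon gamma through the gamma-activated sequence, GAS. Among the genes that interferons switch on are the guanylate-binding proteins (Gbp) and immunity-related GTPases, which attack vacuoles of intracellular microbes, the antiviral Ifit and Oas proteins, the antigen-processing machinery of MHC class I, and PD-L1, the ligand of the inhibitory receptor PD-1.

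Detection was alike on both arrays, with 9672 of 25697 probes detected in naive and 9628 in tolerant CD69- cells. Signals are the deposited normalized intensities, on a linear scale, whose median is 112.8 on every array, and the lowest detected signal was 156.2 in naive and 157.6 in tolerant CD69- cells. The labels' account of the sort writes both fractions as CD69+, but Cd69 itself had signals of 7622, 4514.6, 5589.5 and 5714.4 in naive, tolerant, day 21 and day 7 CD69+ cells against 3082.8, 2001, 1981.7 and 1983.5 in CD69- cells, so every CD69- array was lower than every CD69+ array. The T cell label fits the values, since Cd3e, a chain of the T cell receptor complex, had signals of 18627 and 18552.1 in naive and tolerant CD69- cells. None of the 12 detected pan T cell genes was 1.5-fold apart. Cd8b1, a chain of the CD8 coreceptor, had 48629.2 on both arrays, and Cd4 had 399.2 and 459.7. The Cd8a probe was undetected on all 8 arrays, so it cannot serve as a lineage marker here.

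Of 6810 genes detected on the brighter of the 2 CD69- arrays, 78 (1.15%) were at least 1.5-fold higher in tolerant cells and 106 (1.56%) were lower. The 2 arrays were otherwise close, since 82.4% of the genes lay within 1.2-fold and the median log2 difference (tolerant minus naive) was 0.016. The genes that were lower had interferon-induced genes at their head, with Oasl2 3.96-fold and Cd274 3.85-fold lower. Those that were higher were headed by lysozymes and other genes of myeloid cells, with Lyz2 3.77-fold higher, and held regulatory T cell genes such as Foxp3 and histone H2A genes. Both shares come from the contrast that chose the genes, so they are given as background only. In CD69+ cells 302 of 7143 genes (4.23%) were higher and 162 (2.27%) lower. Of the 184 CD69- genes, 155 were detected on both arrays, and for the rest the fold is given as a lower bound against the lowest detected signal. Fewer cells of a kind and less RNA per cell cannot be told apart in sorted bulk cells. The counts depend on how signals are scaled. Scaling each array to its raw median instead gave 55 higher and 158 lower genes, with a median log2 difference of -0.10 over all genes tested, and background correction with limma's neqc gave 201 and 214.

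**Figure D1:**
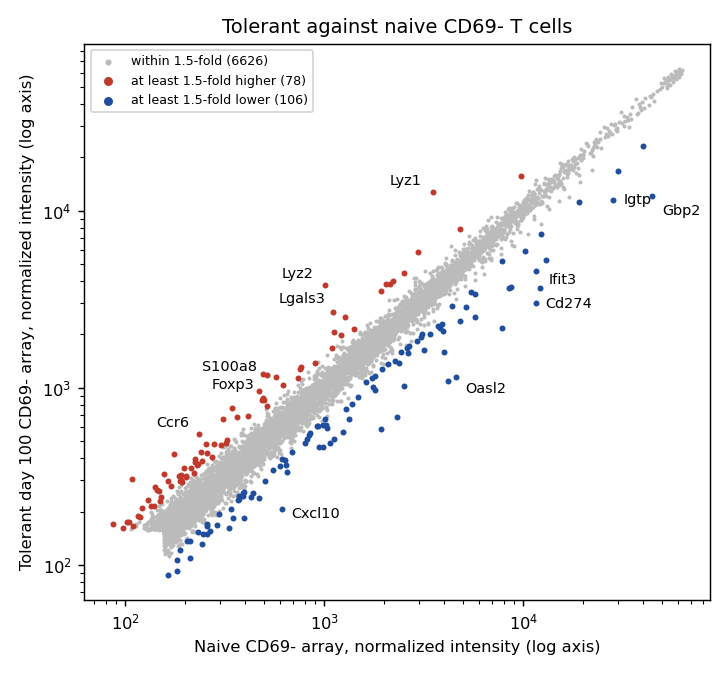
Normalized intensity of 6810 detected genes on the tolerant day 100 CD69- array (vertical, log axis) against the naive CD69- array (horizontal, log axis), 1 point a gene, with the 78 genes at least 1.5-fold higher in red and the 106 lower in blue. Igtp, Gbp2, Ifit3 and Cd274 lie below the diagonal among the brightest genes, while 35 of the 78 genes above it reach a signal of 500.

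The edge of the rule is arbitrary. Just inside it on the higher side were H2ac21, Mapk11 and Tnfrsf9 with log2 differences of 0.585 to 0.598, and just outside were Uhrf1, Ptprs and Rassf4 with 0.584 to 0.579. On the lower side H2-DMa and Oas1g were inside with -0.589 and -0.590, as was Miga1, which was undetected in tolerant cells and at least 1.47-fold lower, and Ppp1r12c, Nfkbie and Socs1, an inhibitor of interferon signalling, were outside with -0.585 to -0.577.

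The genes furthest below naive were mostly of the interferon response. Of the 106 lower genes, 28 belong to a list of interferon-response genes, which was chosen with earlier results of these data known. To this list or to 5 related families gathered after the values were seen belong 41, 16 of them among the 25 lowest. Of the genes of the list and families, 71 were tested. These counts describe the genes and are no test. In the list, 28 of 37 detected genes were at least 1.5-fold lower and none was higher, where 1.56% of all genes were lower. Its median log2 difference was -0.80 against 0.016 over all genes. The signals of its genes summed to 299084 in naive and 149998 in tolerant CD69- cells. The tolerant array was the lowest of the 4 CD69- arrays for 31 of the 37. The median difference from naive was -0.49 on day 21 and -0.08 on day 7, arrays that share the naive array with the day 100 comparison. In CD69+ cells the list's median was -0.35, with 12 of 36 genes lower (2.27% of all genes were lower there). Ifitm2 and Ifitm3, of the interferon-induced transmembrane family and outside the list, went the other way. Their signals were 224.9 and 214 in naive against 396.6 and 351.4 in tolerant CD69- cells. The log2 differences were 0.82 and 0.72 in CD69- cells and 1.50 and 1.57 in CD69+ cells.

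The promoters of 6 of these genes and of Cd274 are shown because they hold, or lack, the letters of the interferon elements just described. They are the 160 bases before the RefSeq gene start (GRCm38.p6), 5′ to 3′ on the gene's strand. Capitals mark matches to GAAANNGAAA, the core of an ISRE, on either strand, or to TTCNNNGAA, the core of a GAS, which reads the same on both strands. Overlapping matches run together.
Gbp2, chr3:142620503-142620662, plus strand: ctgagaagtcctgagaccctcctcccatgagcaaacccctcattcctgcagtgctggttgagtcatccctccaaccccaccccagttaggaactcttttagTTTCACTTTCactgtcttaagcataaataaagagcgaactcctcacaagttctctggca
Gbp7, chr3:142530176-142530335, plus strand: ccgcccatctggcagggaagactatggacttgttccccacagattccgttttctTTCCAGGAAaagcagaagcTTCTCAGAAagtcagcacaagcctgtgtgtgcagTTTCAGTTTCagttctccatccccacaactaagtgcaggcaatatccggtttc
Irgm2, chr11:58214817-58214976, plus strand: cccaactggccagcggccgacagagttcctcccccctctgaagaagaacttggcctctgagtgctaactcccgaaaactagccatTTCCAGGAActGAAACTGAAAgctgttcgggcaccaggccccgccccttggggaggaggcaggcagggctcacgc
Igtp, chr11:58199396-58199555, plus strand: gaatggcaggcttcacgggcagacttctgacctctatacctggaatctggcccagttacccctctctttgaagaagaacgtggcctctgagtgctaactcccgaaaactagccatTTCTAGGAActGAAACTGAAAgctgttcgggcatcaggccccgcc
Ifit3, chr19:34583369-34583528, plus strand: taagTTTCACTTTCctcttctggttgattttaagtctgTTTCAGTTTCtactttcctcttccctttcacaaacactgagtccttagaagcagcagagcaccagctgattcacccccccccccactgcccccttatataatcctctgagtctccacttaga
Isg15, chr4:156200819-156200978, minus strand: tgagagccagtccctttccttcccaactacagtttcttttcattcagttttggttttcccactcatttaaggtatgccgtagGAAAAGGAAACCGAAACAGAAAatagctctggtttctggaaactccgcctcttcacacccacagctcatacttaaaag
Cd274, chr19:29367278-29367437, plus strand: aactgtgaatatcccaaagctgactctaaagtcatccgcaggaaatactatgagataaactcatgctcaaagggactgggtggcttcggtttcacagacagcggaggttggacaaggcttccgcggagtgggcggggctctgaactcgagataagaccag
Gbp2 holds 1 ISRE match, Ifit3 holds 2 and Isg15 holds 3 that overlap. Gbp7 holds 2 GAS matches and 1 ISRE match. In Irgm2 and Igtp, which are neighbours on chromosome 11, a GAS match stands a pair of bases from an ISRE match in both promoters. The Cd274 window holds neither motif, which says only that these letters are not in the window. The genes shown are among the 14 detected on both arrays and furthest below naive, of which 13 have a promoter entry. In the 250 bases before the start, 9 of these hold an ISRE match and 5 a GAS match. Oasl2, the lowest of all, and Plgrkt hold neither. Over the 250 bases before the start, the ISRE letters were found in 24 of the 83 lower genes that have a promoter entry (28.9%), in 1 of 62 higher genes (1.61%) and in 3.46% of all 27025 genes. The GAS letters were found in 15 of the 83 (18.1%), in 7 of the 62 (11.3%) and in 8.13% of all. Of the 28 genes lower in both fractions, 25 have an entry, and 12 of these (48.0%) hold an ISRE match and 10 (40.0%) a GAS match. Of the 78 genes lower in CD69- cells and within 1.5-fold in CD69+ cells, 58 have an entry, with 12 (20.7%) and 5 (8.62%). A match of letters is not a bound site.

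The guanylate-binding proteins were the family with the largest differences. All 6 detected members of this family, gathered after the values were seen, were lower (1.56% of all genes were). Their median log2 difference was -1.74 (-0.58 in CD69+ cells). Gbp2 had signals of 44283.1 in naive, 12013.9 in tolerant, 26246.3 in day 21 and 39304.5 in day 7 CD69- cells, a 3.69-fold gap between tolerant and naive. The tolerant array stood below the other CD69- arrays. Its second probe gave a log2 difference of -2.38 against -1.88 for the brighter probe. In CD69+ cells Gbp2 had 23771.7, 10580.7, 14256.3 and 24106.2 in the same order, 2.25-fold apart between naive and tolerant. Both tolerant arrays were thus near the same level, and it was the naive CD69- array that was highest of all 8. Gbp3 had 7811.5, 2173.2, 4325.1 and 6843.6 in CD69- cells, but 3857.1 and 3054.4 in naive and tolerant CD69+ cells, within 1.5-fold. Gbp7 differed 3.31-fold in CD69- cells and 1.23-fold in CD69+ cells, and Gbp5, which promotes inflammasome assembly, 3.38-fold and 1.63-fold. Among genes on the array, Gbp5, Gbp7, Gbp3 and Gbp2 lie in a row on chromosome 3. Only Gbp2b, undetected in CD69- tolerant and naive cells, stands between them. Pdlim5, the detected neighbour on the other side of Gbp5, had a log2 difference of -0.19.

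All 7 detected immunity-related GTPases and their relatives, also gathered after the values were seen, were lower as well (1.56% of all genes were). Their median was -1.12 (-0.59 in CD69+ cells). Igtp, also called IRGM3, had signals of 28304.7 in naive, 11406.2 in tolerant, 21441.3 in day 21 and 22911.7 in day 7 CD69- cells, 2.48-fold apart between the first pair. Irgm2 had 11550.4, 4547.2, 10119.7 and 10918.8. For both genes the tolerant array alone stood well below the other CD69- arrays. Irgm1, a regulator of the family, had 30070.7 and 16819.4 in naive and tolerant cells. Tgtp1 (log2 difference -1.12), Gm12185 (-0.92), 9930111J21Rik2 (-0.61) and Ifi47 (-0.78) were all lower. Among genes on the array they are 4 consecutive ones of chromosome 11. Gvin1, a very large interferon-induced GTPase, had 5731.1 and 2503.4.

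Among antiviral effectors, 11 of 15 detected Ifit, Oas, Mx and Isg genes were lower (1.56% of all genes were), with a median of -0.72. Oasl2, an Oas-like protein, had signals of 4587.2 in naive, 1157.1 in tolerant, 1691.8 in day 21 and 4587.2 in day 7 CD69- cells. The naive and day 7 arrays shared the same value, and both tolerant stages were below them. The second Oasl2 probe had a log2 difference of -1.36, and probes of the Oas family can take up transcripts of close relatives. Ifit3, which binds other Ifit proteins that sense viral RNA, had 12073.6, 3675.1, 4414.5 and 13438.8, the same order of states, and its 3 probes gave -1.72, -1.67 and -1.59. Isg15, a ubiquitin-like protein that is joined to other proteins, had 2508.5, 1022.9, 1135.9 and 2363.9. Thus Oasl2, Ifit3 and Isg15 on day 21 were nearer to day 100 than to naive, while Irgm2 and Igtp on day 21 were nearer to naive. Samhd1, which degrades deoxynucleotides, had 13058.6, 5286.5, 9290.1 and 11784.9. Usp18, which removes Isg15 from proteins and damps the type I receptor, was 1.94-fold lower. Oas2 was detected in naive and not in tolerant cells and was at least 1.54-fold lower.

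Some antiviral genes differed in CD69- cells and hardly in CD69+ cells. Parp14, an ADP-ribosyltransferase, had signals of 8638 in naive, 3719.2 in tolerant, 6014.2 in day 21 and 6347.9 in day 7 CD69- cells. In CD69+ cells it had 3973.1, 3994.9, 3156.3 and 3758.9, so that the tolerant CD69- array was at the level of the CD69+ arrays. Rsad2, the antiviral enzyme viperin, had 982.9, 463.3, 466.5 and 1113.7 in CD69- cells and 236.1 and 266.9 in naive and tolerant CD69+ cells. Rtp4, an interferon-induced protein that helps receptors to the cell surface, had 393.4 and 185 in CD69- cells against 156.6 and 152.1 in CD69+ cells, the latter close to the lowest detected signals. Dhx58, a helicase that regulates RNA sensing, was 1.74-fold lower in CD69- cells and 1.02-fold in CD69+ cells.

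**Figure D2:**
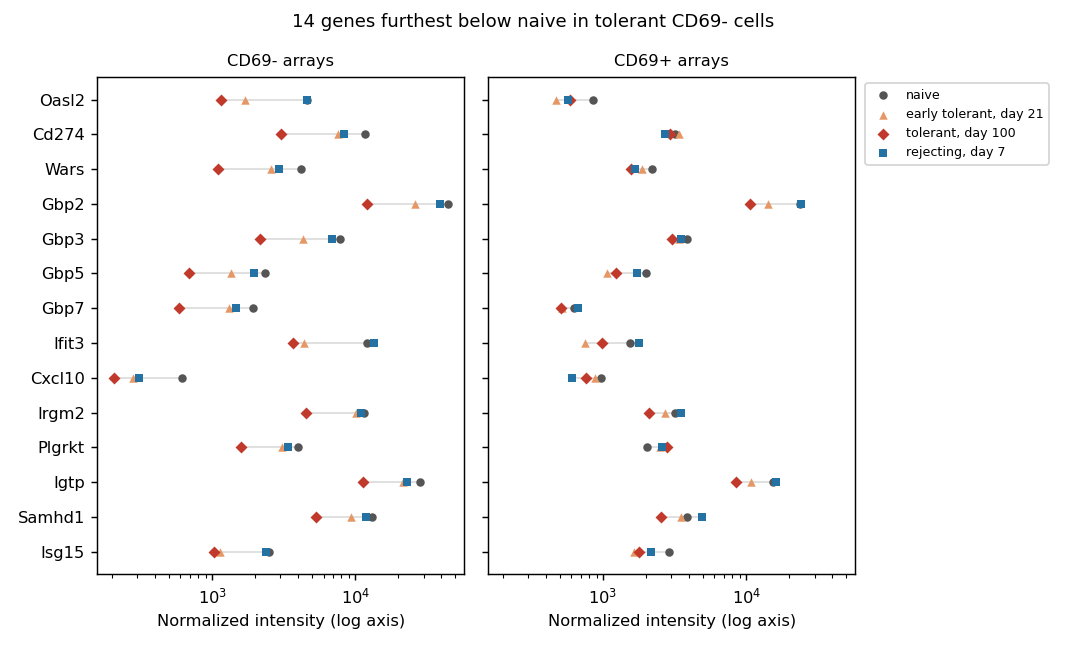
Normalized intensity (log axis) of the 14 genes detected on both arrays and furthest below naive in tolerant CD69- cells, 1 symbol an array, CD69- arrays on the left and CD69+ arrays on the right. The tolerant diamond is leftmost among CD69- arrays for every gene drawn, from Oasl2 (3.96-fold below naive) to Isg15 (2.45-fold), while for Cd274 the 4 CD69+ symbols nearly coincide.

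Cd274, which encodes PD-L1, differed most between the fractions among the genes within 1.5-fold in CD69+ cells. Its signals were 11640.2 in naive, 3026.4 in tolerant, 7524.8 in day 21 and 8271.6 in day 7 CD69- cells. In naive, tolerant, day 21 and day 7 CD69+ cells they were 3186.9, 2955.3, 3368.7 and 2702.8. Only the tolerant array among the CD69- arrays was at the level of the CD69+ arrays. The log2 difference from naive was -1.94 in CD69- cells and -0.11 in CD69+ cells, with 1 probe for the gene. In RefSeq's gene order Cd274 lies between Plgrkt and Pdcd1lg2 on chromosome 19, a neighbourhood looked at after its values were seen. Plgrkt, a plasminogen receptor, had 3992, 1590.8, 3057.7 and 3368.7 in CD69- cells, 2.51-fold lower in tolerant than naive cells. In CD69+ cells its order was turned, with 2020.6 in naive and 2805.6 in tolerant cells. Insl6, a relaxin-like hormone gene on the same side, was 1.70-fold lower in CD69- cells (log2 difference -0.77 against 0.18 in CD69+ cells). Jak2, the kinase gene beyond Insl6, had 3275.9 and 3286.5, and Pdcd1lg2, which encodes the related ligand PD-L2, was undetected with 105.3 and 104.7.

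Chemokine and amino acid genes that interferon gamma induces were also lower. Wars, the cytosolic tryptophanyl-tRNA synthetase, had signals of 4189.6 in naive, 1098.8 in tolerant, 2575.9 in day 21 and 2920.9 in day 7 CD69- cells, and its 4 probes gave log2 differences of -1.93, -1.85, -1.50 and -1.97. Cxcl10, a ligand of CXCR3, had 612, 206.6, 281.5 and 306, so the naive array was apart from the other CD69- arrays. In CD69+ cells Cxcl10 had 964, 756.3, 880.5 and 611.4. Cxcl9, which shares the receptor, was detected in naive and not in tolerant CD69- cells and was at least 1.15-fold lower. The cytokine gene Ifng itself had 164.2 in naive and was undetected in tolerant (121) and day 21 CD69- cells (107.5), with 737.7 on day 7. In CD69+ cells Ifng had 2975, 430.3, 919.5 and 19248.3, and the tolerant array was the lowest.

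Of 24 genes of class I antigen processing, 5 were lower (1.56% of all genes were), with a median of -0.36. They include Tap1, a subunit of the peptide transporter, with signals of 2370 in naive and 1377.9 in tolerant CD69- cells, and Tapbp, the tapasin that bridges it to MHC class I, with 2649 and 1571.2. Nlrc5, the activator of class I gene transcription, had 1755.5 in naive, 1012 in tolerant, 1735.5 in day 21 and 1427.5 in day 7 CD69- cells. H2-T24, a nonclassical class I gene, was detected in naive and not in tolerant cells and was at least 1.70-fold lower. The immunoproteasome genes Psmb8 and Psmb9 did not reach 1.5-fold, with log2 differences of -0.57 and -0.55.

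Of 8 detected interferon regulatory factors, 5 were lower, against 1.56% of all genes (median -0.65, and -0.20 in CD69+ cells). Irf1, the factor behind many responses to interferon gamma, had signals of 39821.2 in naive, 23173.4 in tolerant, 32626.2 in day 21 and 29289.8 in day 7 CD69- cells. In CD69+ cells it was lower in tolerant cells by nearly the same log2 difference, -0.76 against -0.78. Irf7 had 653.4, 335.6, 334.7 and 610.7 in CD69- cells. Irf9 and Stat2, partners in the complex that binds the ISRE, were 1.57-fold and 1.59-fold lower in CD69- cells, and within 1.1-fold in CD69+ cells. Irf8 had 469, 240, 324.1 and 232.6, with the day 7 array as low as the tolerant array, and was also lower in tolerant CD69+ cells (log2 difference -1.37). Irf4, induced by antigen receptor signals, was at least 1.35-fold lower and undetected in tolerant cells.

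Genes of early T cell activation gave a mixed count, with 6 of 18 detected genes lower, 2 higher and a median of -0.16 (1.56% of all genes were lower and 1.15% higher). Among the lower ones were Jun, Egr1 and Fos, transcription factors of the immediate early response. Jun had 945.9 in naive, 463.8 in tolerant, 645.1 in day 21 and 566.4 in day 7 CD69- cells, and Egr1 had 5164.3, 2842.4, 1904.6 and 1520.4. Fos was lower too, with 1954, 1283.4, 740.2 and 683.8, but its log2 difference in CD69+ cells was 0.398. For Egr1 and Fos the naive array stood above the other CD69- arrays, and the tolerant array was the next highest. Cd69 was 1.54-fold lower in tolerant than naive CD69- cells, although cells with the protein had been sorted away, and 1.69-fold lower in CD69+ cells. Of 11 immediate early genes in all, 3 were lower and 1 higher, with a median of -0.19. Socs3, which inhibits cytokine receptors, had 12284.2, 7377.1, 8180.8 and 12945.2 in CD69- cells. Bcl3, an atypical IkB protein, was 1.64-fold lower, the 1 gene called among 16 of NF-kB. Il12rb2, the signalling chain of the IL-12 receptor, was undetected in tolerant and day 21 cells and at least 1.05-fold lower in tolerant cells, a bound that shows almost nothing. Ccl4, a chemokine of activated T cells, had 984.2 and 616.7 in naive and tolerant CD69- cells but 10197.9 and 1640.8 in CD69+ cells. Ly6c1, a surface protein of memory and effector cells that interferon raises, had 10185.7, 5894.7, 9909 and 11699.3 in CD69- cells.

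At the head of the higher genes were those of myeloid cells. Lyz2, lysozyme M, had signals of 1006.4 in naive, 3793.8 in tolerant, 2051.5 in day 21 and 345.9 in day 7 CD69- cells. Lyz1, the adjacent and nearly identical gene whose transcripts the probes may share, had 3501.5, 12655.8, 7133.6 and 1119.2. Both genes had the same order of states in CD69+ cells, at higher signals, with Lyz2 at 2747.9, 16211.2, 8305 and 376.8. Ccl9, a chemokine of macrophages and dendritic cells, had 175.8, 422.2, 302.3 and 98.7 in CD69- cells, undetected on day 7, and was 6.65-fold higher in tolerant than naive CD69+ cells. Alox5ap, which presents arachidonic acid for leukotriene synthesis, was 2.09-fold higher in CD69- cells and 4.24-fold in CD69+ cells. Rnase2a, an eosinophil-type ribonuclease, was undetected in naive cells and at least 1.97-fold higher, and Cd63, a lysosomal tetraspanin, at least 1.70-fold.

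Of the dendritic and myeloid list, 23 of 39 genes on the array were detected in CD69- cells, 10 of them higher and 1 lower (H2-DMa), with 19 above 0 and a median of 0.50. Their summed signal was 22780 in naive and 34959 in tolerant CD69- cells. In CD69+ cells it was 39989 and 120156, with a median of 1.36 and 28 of 36 genes higher. Over all genes, 1.15% were higher in CD69- cells and 4.23% in CD69+ cells. The culture held donor dendritic cells, and the share of these signals that came from them was not tested. The defining markers Itgax (CD11c), Itgam (CD11b) and Cybb, a subunit of the phagocyte oxidase, were undetected on all 8 arrays. Like the Cd8a probe, probes silent on all 8 arrays cannot serve as markers here. The MHC class II genes H2-Aa and H2-Eb1 were 0.60 and 0.68 higher on the log2 scale in CD69- cells and 1.70 and 1.91 higher in CD69+ cells. Fscn1, Ccl17 and Cd86, genes of mature dendritic cells that were higher by log2 differences of 1.33, 1.67 and 0.73 in tolerant CD69+ cells, had 0.16, -0.06 and -0.28 in CD69- cells. The granulocyte genes S100a8 (512.8 in naive, 1180.6 in tolerant, 629.6 in day 21 and 271 in day 7 CD69- cells) and S100a9 (at least 1.67-fold) were higher, and 10 other granulocyte genes on the array, Elane and Mpo among them, were not detected on either of these arrays. Of 14 B cell genes 2 were detected in CD69- cells, neither of them 1.5-fold apart. Cd79b had 666.3 in naive and 620.6 in tolerant cells, and H2-Ob, a subunit of the class II chaperone DO, had 1199.3 and 1696.2 (log2 difference 0.50). The same limit holds for Cd79a, Ms4a1 and Pax5, undetected on all 8 arrays, and the part of B cells in these values was not tested.

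Other genes among the 14 highest are not confined to myeloid cells. Scin, a calcium-dependent actin-severing protein, had signals of 491 in naive, 1190.2 in tolerant, 607.8 in day 21 and 347.7 in day 7 CD69- cells. Il4i1, a secreted amino acid oxidase, had 309.3, 664.9, 547.9 and 253.4. Tubb2b, a beta tubulin, had 1275.1, 2500.4, 1717.5 and 2041.3, and Aldh2, the mitochondrial aldehyde dehydrogenase, 471.8, 962.6, 612.4 and 489.9. Scin and Il4i1 had the order of states that Lyz2 had, while for Tubb2b the day 7 array was second.

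Regulatory T cell genes were higher as a list. Of 20 detected genes 8 were higher and none lower, 18 lay above 0, and the median was 0.56 against 0.44 in CD69+ cells (7 of 22 higher). Over all genes, 1.15% were higher in CD69- cells and 4.23% in CD69+ cells. The summed signals of the list were 20477 and 26816. Foxp3, the lineage factor, had signals of 487.3 in naive, 851.6 in tolerant, 736.8 in day 21 and 687.1 in day 7 CD69- cells, all far below the CD69+ arrays at 3659.4, 5218.3, 4367.5 and 2689.2. Its other probes gave log2 differences of 0.47 and -0.19 against 0.81 for the brightest, so the gene's probes disagree. Ctla4, the inhibitory receptor that competes with CD28, had 1219.3, 1986.9, 1104.5 and 1141.7 in CD69- cells, where the tolerant array stood alone, and 1876.1, 1798.8, 1629.2 and 3701.7 in CD69+ cells. Gpr83, a receptor of regulatory T cells, had 768.1, 1302.7, 1212.8 and 1276.4, where the naive array stood alone. Ecm1 and Tnfrsf9 (4-1BB) were 1.52-fold and 1.51-fold higher and within 1.1-fold in CD69+ cells. Cd83, which activated regulatory T cells and dendritic cells both express, had 254.1 and 479.3 in CD69- cells and 2192.3 and 5428.9 in CD69+ cells. Il2ra, Tnfrsf4 and Socs2 were just short of 1.5-fold, with log2 differences of 0.56, 0.56 and 0.58, and Ikzf4 and Itgae were below 0 (-0.29 and -0.17). Ccr6, a chemokine receptor of Th17, regulatory and B cells, had 236.1, 549.5, 418.1 and 302.4, and its other probe gave 0.84 against 1.22.

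Of 15 detected genes of the S100, annexin and galectin list 3 were higher and none lower (1.15% of all genes were higher), with a median of 0.30. S100a6 had signals of 574.3 in naive, 1150.6 in tolerant, 914.6 in day 21 and 770.5 in day 7 CD69- cells, against 1600.9, 1541.6, 1873.7 and 1554.4 in CD69+ cells. Tolerant CD69- cells were thus 2.00-fold above naive ones and still below every CD69+ array. Anxa2, which binds phospholipid and calcium, had 4803.7, 7836.2, 4197.4 and 3675.1 in CD69- cells. Lgals3, galectin-3, had 1110.4, 2675.6, 1502.7 and 2245.1, and was higher in CD69+ cells also (log2 difference 1.43).

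Most histone genes lay above naive, and those past 1.5-fold were mainly of the H2A family. Of 39 detected histone genes 34 lay above 0, with a median of 0.32 (-0.07 in CD69+ cells) against 0.016 over all genes. At 1.5-fold, 8 were higher and none lower, where 1.15% of all genes were higher. Of these 8, 7 were replication-dependent H2A genes (7 of 10 detected H2ac genes, median 0.75, and 0.33 in CD69+ cells). H2ac10 had signals of 2945.7 in naive, 5860.9 in tolerant, 4896 in day 21 and 4034.2 in day 7 CD69- cells. H2ac24 had 9780.8, 15753.3, 13517.2 and 12202.7. Both showed naive lowest and tolerant highest. Coding sequences of the H2A genes are nearly identical, so 7 probes may report fewer than 7 transcripts. The 8th was H2bc11, an H2B gene. Other H2B and H4 genes were short of 1.5-fold, such as H2bc7 with a log2 difference of 0.52 and H4c6 with 0.41, and the H3 genes H3c13 and H3c14 had 0.11 and 0.06. No gene of 21 detected cell cycle genes reached 1.5-fold, and their median was 0.16.

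The 78 higher and 106 lower genes stood differently in the CD69+ fraction. Of the higher genes, 41 (52.6%) were also at least 1.5-fold higher in CD69+ cells, 35 (44.9%) were within 1.5-fold there and 2 were lower. The 41 are 13.6% of the genes higher in CD69+ cells. Of the lower genes, 28 (26.4%) were also lower in CD69+ cells, 78 (73.6%) were within 1.5-fold and none was higher. The 28 are 17.3% of the genes lower in CD69+ cells. Over all 7143 genes tested in CD69+ cells, 4.23% were higher and 2.27% lower, so most genes at large were not called there either. Median log2 differences were 0.77 in CD69- and 0.72 in CD69+ cells for the higher genes and -0.77 and -0.23 for the lower genes. No difference between the fractions could be tested with 1 array a group. Being within 1.5-fold in CD69+ cells is not the same as no difference there. Of the 35 such higher genes 25 had the same sign in CD69+ cells, and of the 78 lower genes 54 did. Differences at least 1.5-fold apart between the fractions were found for 12 of the 35 and 50 of the 78. The 35 and the 78 also hold genes undetected in both naive and tolerant CD69+ cells, whose change there cannot be read. Examples are Scg5 (90.6 and 106.7) among the higher genes, and Tmem140 (97.2 and 88) and Oas2 (123.4 and 106.7) among the lower.

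**Figure D3:**
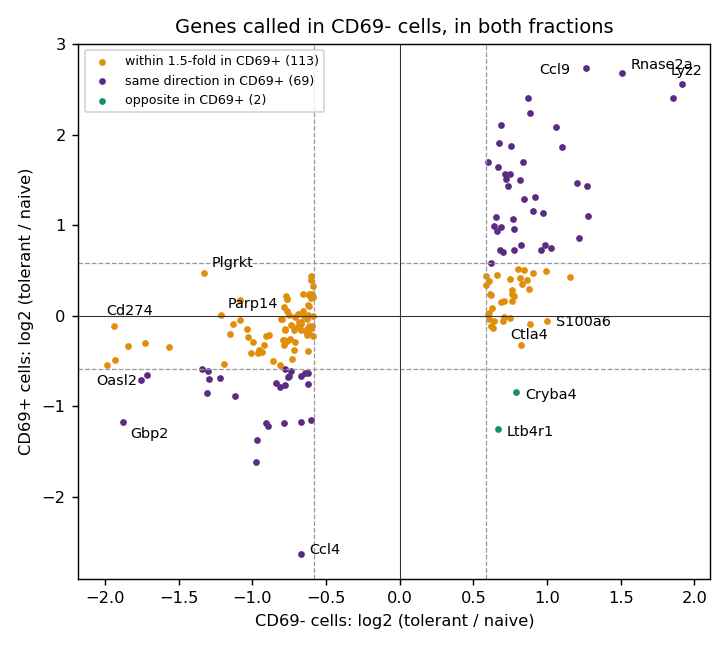
Log2 difference (tolerant minus naive) in CD69+ cells (vertical) against that in CD69- cells (horizontal) for the 184 genes at least 1.5-fold apart in CD69- cells, with dashed lines at 1.5-fold. Most lower genes, Cd274 and Parp14 among them, lie between the horizontal dashed lines, and many higher genes, such as Ccl9, Rnase2a and Lyz2, lie above them.

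Among genes that went the same way in both fractions, the sizes of the signal gaps differed by direction. For the 41 higher genes, the gap between tolerant and naive signals in CD69- cells was a median of 18.0% of the gap in CD69+ cells (5.8% to 121.5%), and it was below 50% for 36 of them. It was 20.7% for Lyz2, 14.2% for Ccl9 and 5.8% for H2-Eb1, and above 100% for S100a8 and S100a9 (111.3% and 121.5%). For the 28 lower genes the median was 178.2% (4.3% to 1479.9%), and 19 lay above 100%, with 244.6% for Gbp2, 654.9% for Irgm2 and 1479.9% for Ifit3. Ccl4 lay at the low end with 4.3%. These are ratios of linear signals on normalized arrays and describe the genes chosen only.

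Genes that were higher in CD69- cells and within 1.5-fold in CD69+ cells, beside S100a6 and Ctla4, were of varied kinds. Ckb, the brain-type creatine kinase, had signals of 1119.2 in naive, 2061.9 in tolerant, 1622.4 in day 21 and 1472.5 in day 7 CD69- cells and 3596.5 and 3375.4 in naive and tolerant CD69+ cells. Bbs9, a subunit of the BBSome, had 622.3, 1042.8, 949.1 and 831.5 in CD69- cells. Emp1, an epithelial membrane protein, had 198.3, 351.6, 258.2 and 363.9, and Lmna, lamin A/C, 202.5, 315.4, 291.9 and 360.5. For Ckb and Bbs9 the tolerant array was highest, but for Emp1 and Lmna it was the day 7 array. H2bc11 was 0.63 higher on the log2 scale and Tmem176b 1.16, against -0.14 and 0.43 in CD69+ cells. Kank2 and Cp, ceruloplasmin, were undetected in naive CD69- cells and at least 1.37-fold and 1.21-fold higher. Cp was also undetected in naive and tolerant CD69+ cells (133.3 and 132.6).

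Ltb4r1 and Cryba4 went opposite ways in the fractions. Ltb4r1, a receptor of leukotriene B4, had signals of 188.4 in naive, 298.9 in tolerant, 273.2 in day 21 and 175.5 in day 7 CD69- cells and 2482.3, 1043.4, 1402 and 1981.7 in CD69+ cells. The tolerant array was the highest of the 4 in CD69- cells and the lowest of the 4 in CD69+ cells, and every CD69- signal was below every CD69+ signal. Cryba4, a lens crystallin gene, was undetected at 120.9 in naive and had 208.7 in tolerant CD69- cells, at least 1.34-fold higher, against 367.2 and 205.1 in CD69+ cells.

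The day 21 and day 7 arrays are set beside the 184 genes with the same naive array as reference. Among the 78 higher genes, the tolerant array was the highest of the 4 CD69- arrays for 69, and the day 21 signal lay between naive and day 100 for 74. A gap from naive of 1.5-fold the same way was reached by 19 on day 21 and by 13 on day 7. Among the 106 lower genes, the tolerant array was the lowest for 91 and day 21 lay between for 93. Here 32 reached 1.5-fold below naive on day 21 and 15 on day 7. The genes were chosen for a gap between the naive and day 100 arrays, which favours such places for those 2 arrays.

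**Figure D4:**
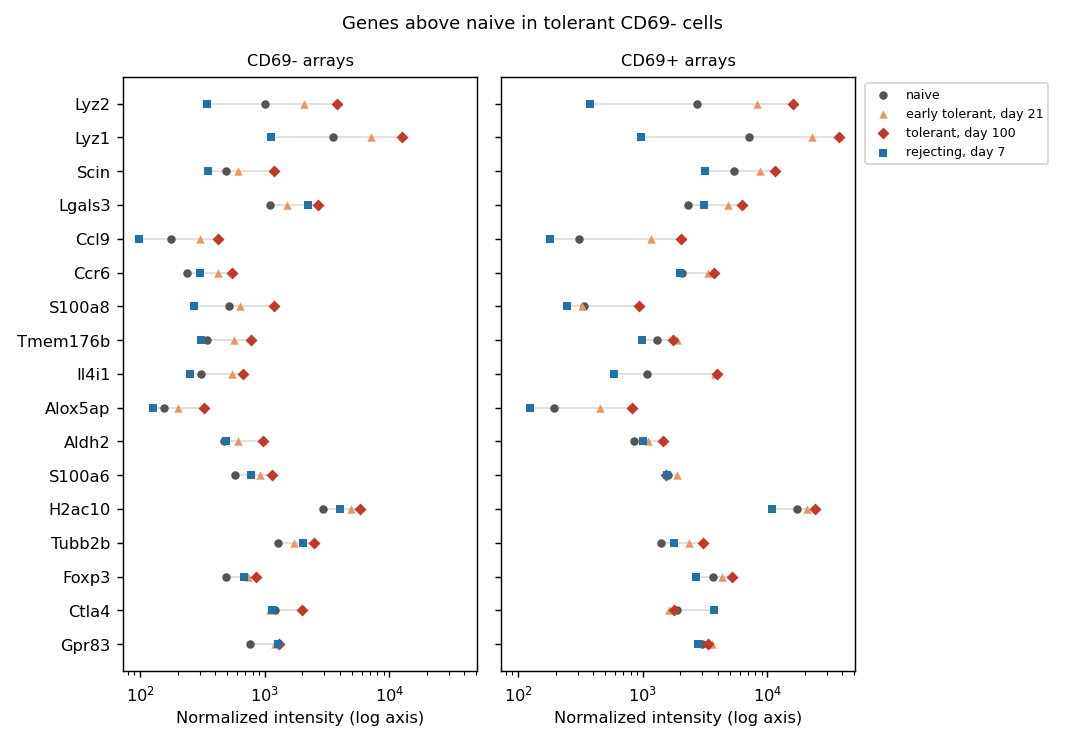
Normalized intensity (log axis) of the 14 genes detected on both arrays and furthest above naive in tolerant CD69- cells, and of Foxp3, Ctla4 and Gpr83, 1 symbol an array, CD69- arrays on the left and CD69+ arrays on the right. Lyz2 and Lyz1 run from day 7 over naive and day 21 to tolerant in both fractions, while S100a6 and Ctla4 differ between tolerant and naive on the left only.

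Many programs differed little in CD69- cells. No gene reached 1.5-fold among 53 ribosomal protein genes (median 0.02), 61 of oxidative phosphorylation (-0.01), 18 of glycolysis (0.00), 16 of heat shock (0.00), 15 of cholesterol synthesis (0.05), 15 of apoptosis (-0.02), 10 integrins (-0.03) or 19 genes of naive and resting T cells (-0.03). Of 20 memory and effector genes 1 was lower (Ly6c1), and of 9 effector cytokine genes 1 was lower (Ccl4), with medians of -0.18 and -0.08. Over all genes 1.56% were lower and 1.15% higher, so 1 gene called in so small a list says little. In CD69+ cells the effector cytokine list had 9 of 20 genes lower, 2 higher and a median of -0.56 (2.27% of all genes were lower and 4.23% higher). Cdkn1a, the cell cycle inhibitor p21, was at least 1.47-fold higher and the only p53 target of 12 past 1.5-fold. The lower bound was 1.56-fold for the globin gene Hba-a1, 1 of 2 detected erythroid genes, and 1.64-fold for Gstp2, a glutathione transferase, both lower in tolerant cells.

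**Figure D5:**
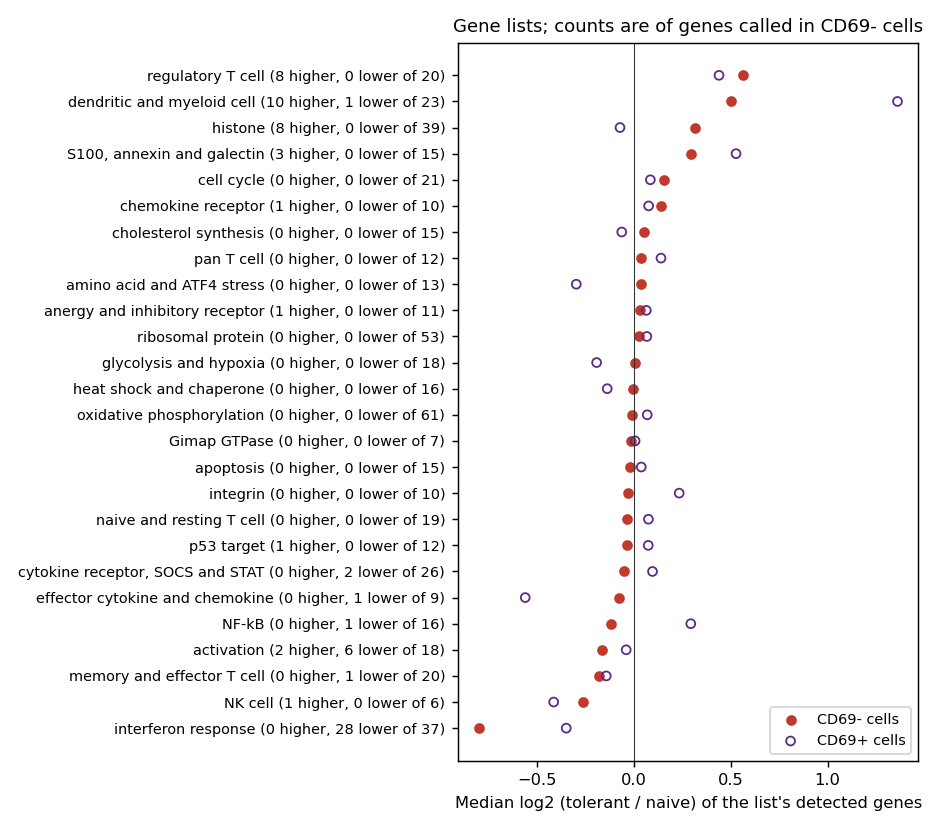
Median log2 difference (tolerant minus naive) of the detected genes of each list with at least 5, in CD69- cells (filled) and CD69+ cells (open), with counts of CD69- genes at least 1.5-fold apart in the labels. The interferon list is lowest in CD69- cells (-0.80, against -0.35 in CD69+ cells), and the regulatory T cell and dendritic and myeloid lists are highest (0.56 and 0.50).

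Where a gene had several detected probes the brightest was used. Of 48 such genes among the 184, all probes of 45 differed the same way by at least 1.1-fold, and for Foxp3, Pim2 and Slco3a1 a probe was closer to naive or turned. The brightest Adar probe, for the RNA-editing enzyme, was 1.74-fold lower and another gave a log2 difference of -0.32.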

How the data were processed

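Per the submitters' processing notes, the Illumina MouseRef-8 arrays went through BeadStudio 3.1.3. The deposited intensity values of the series matrix are linear, positive and uncentred, and every column holds the same sorted values to within 0.0827%, as quantile normalization without background subtraction gives. That step is read from the values, as no source used here states it. The detection p-value of each probe comes from the authors' deposited table of raw intensities. Its printed identifiers were out of register with its rows: 20106 of 25697 (78.2%) differed from the matrix identifier whose signals match by rank, and by matrix identifiers Cd3d averaged 24580 and Alb 80.2, against 778.1 and 3162 by the printed ones. Rows were matched one to one by ranks over the 8 arrays. GEO's platform annotation gives 1 symbol for 23978 probes, several for 0 and none for 1719. Of these, 23962 were updated by Entrez identifier against RefSeq (GRCm38.p6), giving 16593 genes.

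Per gene, the brightest probe stood for the gene, and a gene was tested where the brighter array had detection p under 0.01. Differences are log2 of tolerant over naive signal. With 1 array a group no p-value, error or interval exists, and the number of arrays limits precision. The named genes are the 14 largest in each direction detected on both arrays, the 4 largest lower bounds, the 10 that differ most between fractions while within 1.5-fold in CD69+ cells, those of opposite direction and up to 4 genes a list, all else being named by lists or after its values were seen. The genes, the 32 lists and the tests were chosen with earlier results of these data known, and 10 families were added after seeing the values. Alternatives were neqc (limma 3.58.1, R 4.3.3, offset 16) on raw intensities, median scaling, the mean of probes, other detection and signal filters, and other thresholds. Matching was tested on simulated tables with shuffled rows. Counting was checked on signals multiplied by set factors, without noise or a detection filter, which checks the arithmetic only. Promoters are from RefSeq.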

Additional observations from a re-analysis of the deposited data

Results flagged for a closer look

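Cryba4 and Ltb4r1 were picked out because tolerant and naive cells differed in opposite directions in the fractions. The log2 difference of Cryba4 was 0.788 in CD69- and -0.84 in CD69+ cells, and that of Ltb4r1 was 0.665 and -1.25. The difference between the fractions was not tested, since each group has 1 array. Cryba4 was undetected on the naive CD69- array.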

How the results depend on the processing

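No paired analysis was possible because each group has 1 array, and for the same reason no replicate could be left out. Of the 78 higher, 106 lower and 113 genes within 1.5-fold in CD69+ cells, neqc gave 201, 214 and 290, all 184 genes among them. A 2-fold threshold gave 13, 25 and 18. A signal of at least 500 on the brighter array left 35 higher genes. With a limit of 1.2-fold in CD69+ cells 71 of the 113 remained. Of all 184 genes, whatever their call in CD69+ cells, 70 had a difference in CD69- cells that exceeded the one in CD69+ cells by 1.5-fold. Median scaling gave 55, 158 and 140 (160 of the 184 shared), the mean of probes 72, 95 and 98, detection on both arrays 61, 94 and 101, no detection filter 84, 108 and 119, and raising undetected signals to the lowest detected one 66, 98 and 105. Without spread between replicates, a value was counted as moved past 1.5-fold. Of 465 values for 73 named genes 456 had not moved and 9 had, 8 of them larger under neqc (Alox5ap, Rnase2a, Gm4956, Cd63, Oas2, Cp, Cryba4 and Il12rb2), and none turned sign. Of 182 list medians 1 turned, that of the NK cell list, -0.26 against 0.014 without a detection filter. The cause was not tested. Signals near background limit the dim genes, whose folds are compressed without background subtraction.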
